A study of Mus musculus with 6 samples.

Results

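Adenylyl cyclases make cyclic AMP (cAMP) from ATP at the plasma membrane, and protein kinase A (PKA) is the main enzyme that cAMP switches on in the adipocyte. The genes described here are 6 membrane cyclases, *Adcy3*, *Adcy4*, *Adcy5*, *Adcy6*, *Adcy7* and *Adcy9*, and 4 subunits of PKA, the catalytic *Prkaca* and *Prkacb* and the regulatory *Prkar1a* and *Prkar2b*. They were chosen by name and found in the count table through their NCBI gene identifiers. All 10 were among the 19790 genes of the table, and all 10 were among the 15241 genes that passed the filter on low counts. The question was how their mRNA differed in gonadal white adipose tissue (gWAT) between mice on a normal chow diet (NCD) and mice on a high-fat diet (HFD).

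RNA came from 3 NCD mice and 3 HFD mice, all wild-type on the C57BL/6 strain, with no transgene or deletion in either group. According to the sample labels the diets ran for 8 weeks from 6 weeks of age, whereas the methods text starts the HFD at 8 weeks of age. Each library is 1 mouse, and the third HFD library carries the number 4 in the column name of the table. The libraries held 49575113 to 66360046 counts. Of the 10 adipocyte markers read here, none was at 0 in all libraries, and their summed level was 5832, 22009 and 30083 CPM, a count scaled to the size of its library, in NCD replicates 1, 2 and 3 against 15781, 16560 and 12525 in the HFD mice.

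NCD replicate 1 stood apart. Secretory genes of the seminal vesicle, a gland that lies beside the gonadal fat pad, took 58.6% of its counts, 11.2% in NCD replicate 2 and 2.30% in NCD replicate 3, against 8 counts or fewer in each HFD library. The same library had the highest sum of 6 smooth muscle markers, 6542 CPM against 216 to 768 CPM in the other 5, and the highest sum of 7 epithelial markers, 1201 CPM against 15.7 to 120 CPM. The 10 genes are therefore given with all 6 mice and again without NCD replicate 1, which leaves 2 NCD mice. NCD replicates 2 and 3 still hold seminal vesicle RNA, so in both fits diet cannot be told apart from this admixture. Without NCD replicate 1, all 11 seminal vesicle genes, 4 of 7 epithelial and 3 of 6 smooth muscle markers still passed as lower. The part of this admixture in the differences below was not tested. Levels are CPM after TMM scaling, which sets the libraries to a common scale through genes that differ little. Because these are bulk samples, fewer cells of a type and less RNA per cell cannot be told apart.

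In fat cells, noradrenaline and other ligands act on receptors coupled to the stimulatory G protein Gs, which switches the cyclases on, while receptors coupled to Gi restrain them. In the absence of cAMP a dimer of regulatory subunits holds the catalytic subunits of PKA inactive, and cAMP releases them. The freed catalytic subunits phosphorylate hormone-sensitive lipase and perilipin and so start lipolysis. They also phosphorylate the transcription factor CREB, which binds the cAMP response element. The cyclases differ in what else controls them. *Adcy5* and *Adcy6* are inhibited by calcium and by Gi, *Adcy4* and *Adcy7* can be stimulated by G protein βγ subunits, *Adcy3* responds to calcium and calmodulin, and *Adcy9* is the least sensitive to forskolin.

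The cAMP response element is TGACGTCA, so the promoters of these genes can be read for it. The sequences below are the 250 bases just upstream of an annotated transcription start in RefSeq, build GRCm38.p6, 5′ to 3′ on the strand of the gene, and capitals mark the half-site TGACG or its complement CGTCA. They are shown for *Adcy7* and *Adcy5*, the cyclases that passed the test with all 6 mice, and for *Prkaca*, the PKA subunit that passed it without NCD replicate 1. *Adcy7* has 3 such windows and *Prkaca* has 2, and the windows printed are the ones with a half-site, since the others hold none. All windows of *Adcy7* and the window of *Adcy5* begin downstream of the first base of the gene as given below. The bases upstream of those gene starts were not searched.
Adcy7, chr8:88282742-88282991, plus strand: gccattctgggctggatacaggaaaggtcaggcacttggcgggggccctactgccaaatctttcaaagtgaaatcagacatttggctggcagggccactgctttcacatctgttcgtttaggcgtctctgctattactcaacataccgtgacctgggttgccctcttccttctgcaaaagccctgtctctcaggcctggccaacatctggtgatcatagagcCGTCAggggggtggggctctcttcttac
Adcy5, chr16:35154614-35154863, plus strand: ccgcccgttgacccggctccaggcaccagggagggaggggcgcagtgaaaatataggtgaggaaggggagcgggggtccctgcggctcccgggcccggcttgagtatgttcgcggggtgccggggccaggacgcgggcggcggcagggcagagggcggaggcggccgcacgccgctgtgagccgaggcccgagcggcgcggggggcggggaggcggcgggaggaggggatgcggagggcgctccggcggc
Prkaca, chr8:83972728-83972977, plus strand: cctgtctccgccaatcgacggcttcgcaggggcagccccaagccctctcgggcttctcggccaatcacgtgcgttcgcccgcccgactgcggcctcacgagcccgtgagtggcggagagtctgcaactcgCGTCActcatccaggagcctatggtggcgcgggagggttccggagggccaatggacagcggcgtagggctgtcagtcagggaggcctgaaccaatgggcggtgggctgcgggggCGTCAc

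The full element was found once, in a promoter of *Prkar1a*, and is shown for that reason in capitals within 30 bases.
Prkar1a, chr11:109650889-109650918, plus strand: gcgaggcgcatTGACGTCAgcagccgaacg

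RefSeq windows were found for 9 of the 10 genes, 21 windows in all. The full element stood in 1 of these 21 windows, against 508 of 32851 windows over all genes (1.55%). A half-site on either strand, the full element included, stood in 7 of the 21, against 5836 of 32851 (17.8%). Windows of a gene can overlap, and a half-site shared by overlapping *Prkar1a* windows is counted in each of them. A match describes the letters only and is no measure of binding.

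Among the cyclases, *Adcy7* and *Adcy5* rose on HFD, and *Adcy6*, the most abundant cyclase on NCD, was lower in every HFD mouse without passing the test with all 6 mice. With all 6 mice 2 of the 10 genes passed edgeR's quasi-likelihood test at an adjusted p under 0.05, both higher on HFD, while 7.47% of the 15241 genes tested passed in either direction and 5.58% passed as higher. None of the 10 passed as lower, against 1.90% of all genes, where 1 was lower at an unadjusted p under 0.05 and 1 passed as lower in DESeq2. DESeq2 called 5 of the 10, all of them cyclases, against 25.6% of all genes. For 5 genes, all of them cyclases, the NCD and HFD mice did not overlap, against 39.2% of all genes tested. The median log2 fold change of the 10 genes was 0.03, and that of all genes tested was −0.08. With NCD replicate 1 left out, 3 genes were higher (*Adcy4*, *Adcy5*, *Adcy7*), against 10.7% of all genes, and 2 were lower (*Adcy6*, *Prkaca*), against 10.1%. That fit called 20.9% of all genes in either direction. In it the diets did not overlap for 6 of the 10, against 57.1% of all genes, and 2 of these 6 were lower, against 29.1%.

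**Figure D1:**
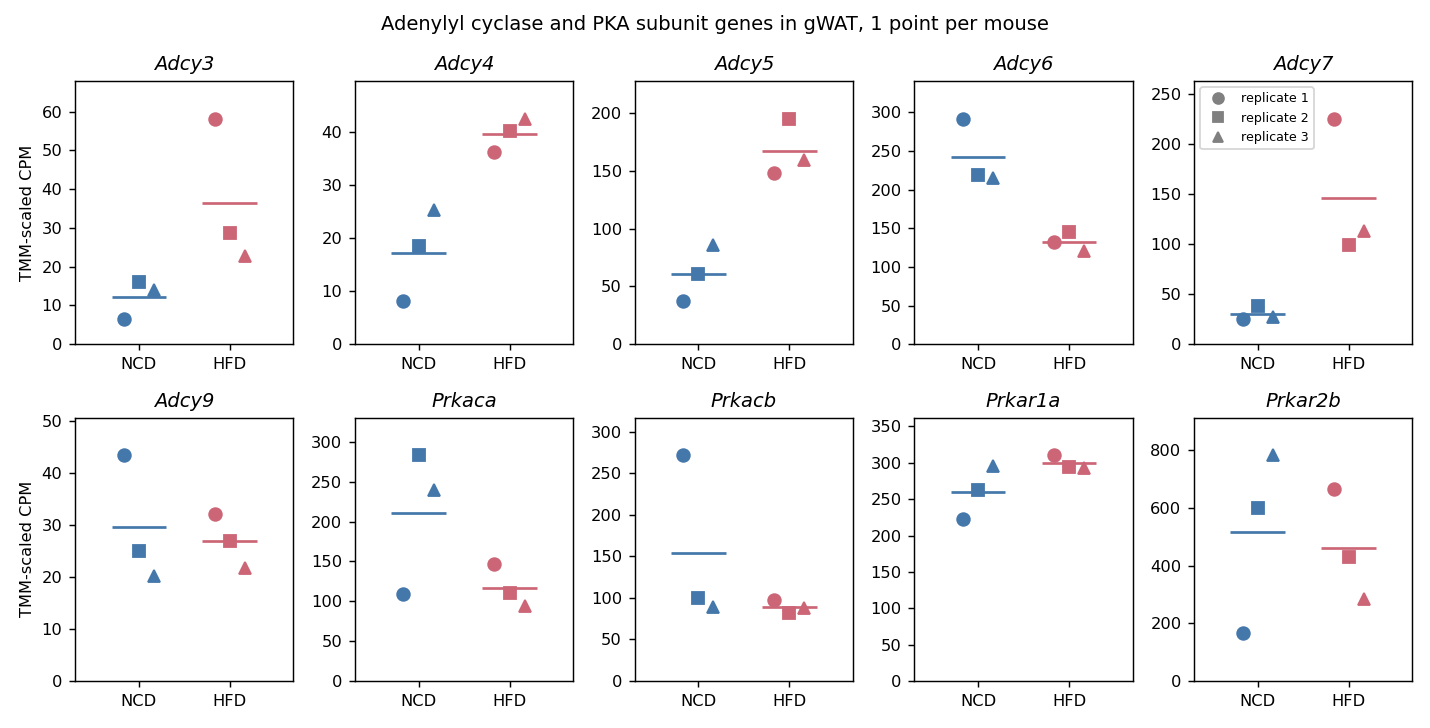
TMM-scaled CPM (linear axes from 0) of the 6 cyclases and 4 PKA subunits in each mouse, NCD and HFD side by side, with a bar at each group mean. *Adcy3*, *Adcy4*, *Adcy5* and *Adcy7* are higher in every HFD mouse than in any NCD mouse, *Adcy6* is lower in every HFD mouse, and the other 5 genes overlap.

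*Adcy7* is the cyclase best known from blood and immune cells. Its gene lies at chr8:88272190-88329965. Its level was 25.5, 38.2 and 27.7 CPM in the NCD mice and 226, 98.8 and 113 CPM in the HFD mice. The lowest HFD mouse was above the highest NCD mouse, and HFD replicate 1 was the highest of all. The mean went from 30.5 ± 6.77 to 146 ± 69.4 CPM (SD, n = 3 each), a 4.78-fold rise (log2 fold change 2.26, SE 0.375, edgeR adjusted p = 0.0279). Leaving out NCD replicate 1 gave a log2 fold change of 2.16 (SE 0.419, edgeR adjusted p = 0.0224). Any one of the other 5 mice left out gave log2 fold changes of 1.81 to 2.49 and edgeR adjusted p of 0.0561 to 0.10.

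A list of 10 macrophage markers moved in the same direction. Its summed level was 387, 939 and 860 CPM in the NCD mice and 3637, 2396 and 3060 CPM in the HFD mice, and 5 of the 10 passed the test as higher, 9 without NCD replicate 1. No marker of that list was at 0 in all libraries. The level of *Adcy7* was 6.60%, 4.07% and 3.22% of this sum in the NCD mice and 6.20%, 4.12% and 3.70% in the HFD mice, so relative to these markers the diets overlapped. These ratios to marker lists were chosen after the values had been seen and carry no test, and the part of the macrophage markers in the rise of *Adcy7* was not tested.

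*Adcy5*, a cyclase best known from heart and brain and restrained by calcium and Gi, lies at chr16:35154494-35305743. Its level was 37.5, 60.5 and 85.6 CPM in the NCD mice and 148, 195 and 160 CPM in the HFD mice. The groups did not overlap, with NCD replicate 1 the lowest. The mean went from 61.2 ± 24.0 to 168 ± 24.6 CPM (SD, n = 3 each), a 2.74-fold rise (log2 fold change 1.45, SE 0.321, edgeR adjusted p = 0.0499). It was 1.21 when NCD replicate 1 was left out (SE 0.216, edgeR adjusted p = 0.0176). The adjusted p was close to 0.05 and the call was lost in several fits, with 0.0620 in edgeR without a filter, 0.0908 with scaling to total counts, 0.0576 with upper-quartile scaling, 0.0561 in limma-voom, and 0.0706 to 0.161 in edgeR without any one of the other 5 mice. As a share of the summed adipocyte markers, its level was 0.644%, 0.275% and 0.284% in the NCD mice and 0.938%, 1.18% and 1.28% in the HFD mice. Here the groups did not overlap. *Cfd* and *Fabp4* are large parts of that sum. *Cfd* was at 1875, 6340 and 8820 CPM on NCD and 392, 1052 and 659 CPM on HFD. It was the 1 marker of the list without overlap between the diets. *Fabp4* was at 1458, 6134 and 8697 CPM on NCD and 6568, 8195 and 6738 CPM on HFD. None of the 10 adipocyte markers passed edgeR's test in either direction, 3 were lower at an unadjusted p under 0.05, and 3 were lower in DESeq2. With NCD replicate 1 left out, 5 of the 10 passed edgeR's test as lower.

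*Adcy6*, the close relative of *Adcy5* with the same inhibition by calcium and Gi, lies at chr15:98589978-98610287 and went the other way. Its level was 292, 220 and 215 CPM in the NCD mice and 133, 145 and 120 CPM in the HFD mice. Every HFD mouse was below every NCD mouse, and NCD replicate 1 was the highest. The mean went from 242 ± 43.2 to 133 ± 12.7 CPM (SD, n = 3 each), with a log2 fold change of −0.87 (SE 0.195), which missed the threshold at an edgeR adjusted p of 0.0517. *Adcy6* fell by 0.70 on the log2 scale without NCD replicate 1 (SE 0.129, edgeR adjusted p = 0.0200), and with all 6 mice DESeq2 gave an adjusted p of 2.58e-04. It also passed in edgeR with all 6 mice when the filter was a mean CPM of at least 1, and with upper-quartile scaling (adjusted p = 0.0486). With scaling to total counts the log2 fold change was −0.29, where the median of all genes lay at 0.45 instead of −0.08. Relative to the summed adipocyte markers *Adcy6* was at 5.01%, 0.997% and 0.714% in the NCD mice. In the HFD mice this ratio was 0.842%, 0.878% and 0.958%, so here the diets overlapped. An antisense gene, *Gm29331*, shares 8.92% of the exon bases of *Adcy6* on the opposite strand, and whether the counting used strand is not stated.

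*Adcy4* and *Adcy3* were higher in every HFD mouse, and neither passed the test with all 6 mice. *Adcy4* (chr14:55769056-55784095), a cyclase stimulated by βγ subunits, was at 8.22, 18.4 and 25.2 CPM in the NCD mice and 36.1, 40.1 and 42.5 CPM in the HFD mice. Its HFD values lay close together, and NCD replicate 1 was the lowest. The mean was 17.3 ± 8.55 CPM on NCD and 39.6 ± 3.22 CPM on HFD (SD, n = 3 each), with a log2 fold change of 1.19 (SE 0.394, edgeR adjusted p = 0.110). *Adcy4* rose by 0.87 without NCD replicate 1 (SE 0.178, edgeR adjusted p = 0.0254). A list of 8 endothelial markers summed to 284, 811 and 950 CPM in the NCD mice and 1157, 995 and 1001 CPM in the HFD mice, with none of the 8 past edgeR's test, 1 higher at an unadjusted p under 0.05 and 1 higher in DESeq2. In the fit without NCD replicate 1, where *Adcy4* passed, 2 of the 8 passed as higher. Relative to that sum *Adcy4* was at 2.89%, 2.27% and 2.65% on NCD and at 3.12%, 4.03% and 4.25% on HFD, and these did not overlap.

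*Adcy3* (chr12:4133116-4213525), the calmodulin-responsive cyclase whose loss is linked to obesity in mice and humans, was at 6.46, 16.0 and 14.0 CPM in the NCD mice and 58.2, 28.6 and 22.7 CPM in the HFD mice. HFD replicate 1 was far above the other HFD mice. The mean was 12.1 ± 5.01 CPM on NCD and 36.5 ± 19.0 CPM on HFD (SD, n = 3 each), with a log2 fold change of 1.59 (SE 0.484, edgeR adjusted p = 0.0940) and of 1.30 without NCD replicate 1 (SE 0.421, edgeR adjusted p = 0.0810). *Cenpo*, on the opposite strand, covers 22.1% of its exon bases, and reads there could not be told apart if strand was not used. The level of *Cenpo* was 5.19 to 7.28 CPM on NCD and 6.57 to 7.80 CPM on HFD.

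*Adcy9* (chr16:4284886-4437236) was at 43.4, 25.0 and 20.2 CPM in the NCD mice and 32.1, 26.9 and 21.8 CPM in the HFD mice. The groups overlapped, and the log2 fold change was −0.13 (SE 0.321, edgeR adjusted p = 0.804). It was 0.26 without NCD replicate 1 (SE 0.196, edgeR adjusted p = 0.373), and its sign also turned with total counts and without HFD replicate 3.

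**Figure D2:**
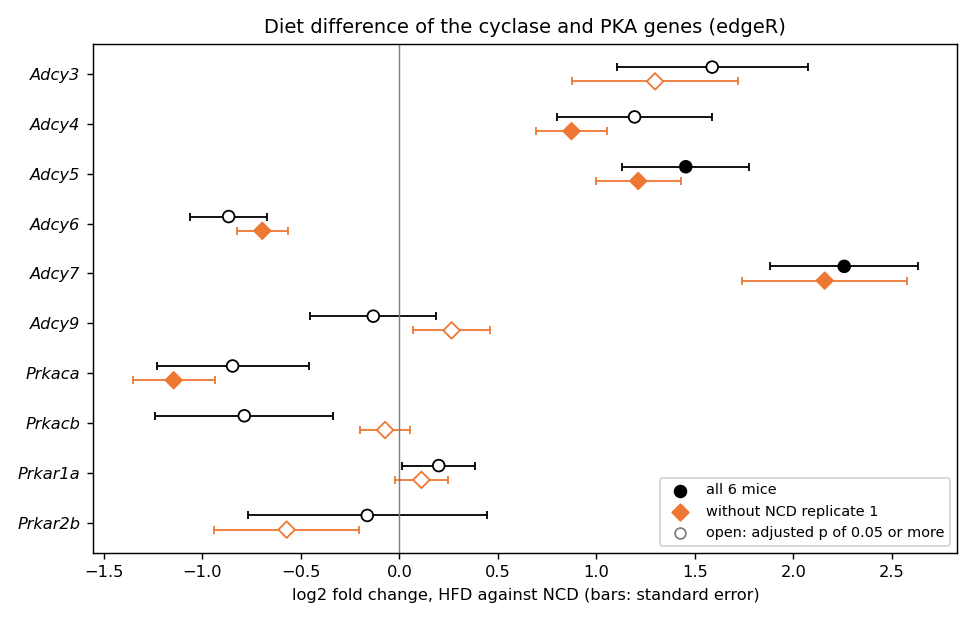
Log2 fold change (HFD against NCD) of each of the 10 genes with its standard error, with all 6 mice and without NCD replicate 1. *Adcy7* is highest at 2.26, *Adcy6* lowest at −0.87 with all 6 mice, and *Prkaca* lowest at −1.15 without NCD replicate 1.

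Levels of different genes can be compared only per length, so the counts were also divided by exon length (FPKM, the TMM-scaled CPM per kilobase of exon). On NCD *Adcy6* was by far the most abundant cyclase, at 40.1 ± 7.16 FPKM, ahead of *Adcy5* at 8.73 ± 3.43, *Adcy9* at 5.69 ± 2.35, *Adcy4* at 4.91 ± 2.43, *Adcy7* at 4.90 ± 1.09 and *Adcy3* at 2.41 ± 1.00 (mean ± SD, n = 3). Only *Adcy6* stood clear of the rest in all 3 NCD mice, since the spreads of *Adcy5*, *Adcy9*, *Adcy4* and *Adcy7* overlapped. On HFD *Adcy5* (23.9 ± 3.51 FPKM), *Adcy7* (23.5 ± 11.2) and *Adcy6* (22.0 ± 2.11) lay within each other's spread, followed by *Adcy4* (11.2 ± 0.92), *Adcy3* (7.26 ± 3.78) and *Adcy9* (5.18 ± 0.989). The order at the top was *Adcy7*, *Adcy6*, *Adcy5* in HFD replicate 1 and *Adcy5*, *Adcy6*, *Adcy7* in the other two.

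The make-up of the cyclases can also be read within each library, as shares in which scaling between libraries plays no part. The shares are linked, so the share of a cyclase can fall because others rise. *Adcy6* made up 68.8%, 55.2% and 52.9% of the summed FPKM of *Adcy1* to *Adcy10* in the NCD mice and 20.5%, 26.7% and 24.3% in the HFD mice. Its share was thus above 50% in each NCD mouse and below 30% in each HFD mouse, a difference of −35.2 percentage points, and of −30.2 without NCD replicate 1. The exact two-sided permutation p was 0.1, the smallest that 3 against 3 mice allows, and 0.15 after Benjamini-Hochberg adjustment over the 9 quantities tested this way.

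The share of *Adcy7* was 5.85%, 9.33% and 6.61% in the NCD mice and 33.7%, 17.6% and 22.2% in the HFD mice. The share of *Adcy5* was 7.63%, 13.1% and 18.1% against 19.6%, 30.8% and 27.9%. Neither gene's shares overlapped between the diets, and the exact permutation p was 0.1 for each (0.15 adjusted). The share of *Adcy3* was also higher in every HFD mouse (1.83% to 4.82% against 5.52% to 10.8%) and that of *Adcy9* lower (5.77% to 11.9% against 5.13% to 5.74%), the latter by a margin far smaller than the spread on NCD. For *Adcy4* the shares overlapped, 3.32% to 10.6% against 9.54% to 14.8% (exact permutation p = 0.2). The summed FPKM of all cyclases was 70.2, 65.8 and 67.3 in the NCD mice and 108, 90.4 and 81.8 in the HFD mice, with no overlap. Unlike the shares, this sum depends on the scaling between libraries.

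**Figure D3:**
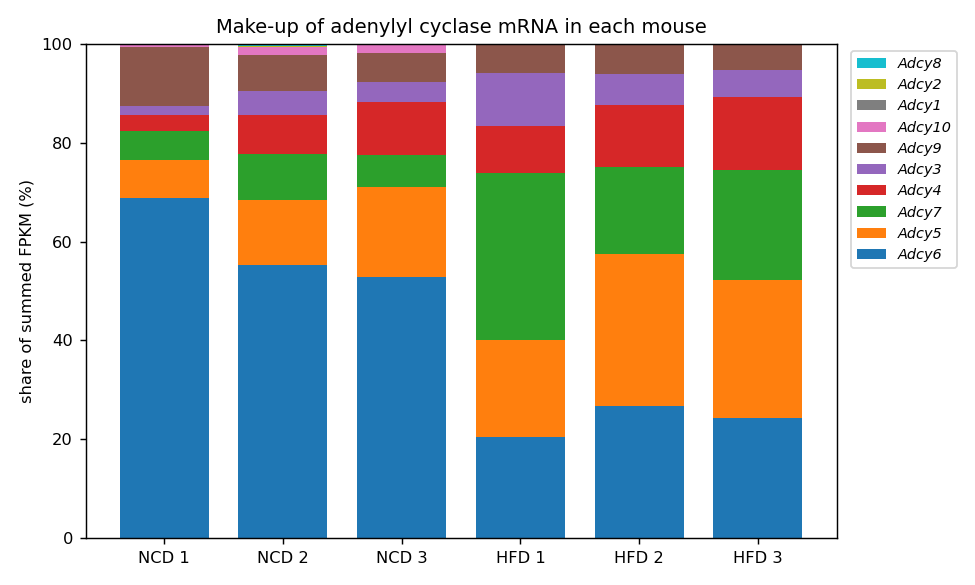
Share of each adenylyl cyclase in the summed FPKM of *Adcy1* to *Adcy10* (percent, stacked to 100) in each of the 6 mice. *Adcy6* takes 52.9% to 68.8% in the NCD mice and 20.5% to 26.7% in the HFD mice, where *Adcy5* and *Adcy7* take more.

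The genes whose profile over the 6 mice lay nearest to that of *Adcy7* were *Hmga1b*, *Iqgap3*, *Slamf7*, *Dock2* and *Ptpn22*. Their root mean square distance from it was 0.116 to 0.166 on the log2 scale, over mean-centred log2 CPM in 6 mice. For *Adcy6*, the gene with the largest negative fold change, they were *AA543186*, *Sirt5*, *Rfesd*, *Clpb* and *Abcb10*, at 0.0531 to 0.0689. Both lists are descriptions over 6 libraries and carry no test.

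None of the PKA subunits passed the test with all 6 mice. Of the 4, *Prkaca* alone passed it without NCD replicate 1, as lower on HFD. *Prkaca* (chr8:83972978-83996444) encodes the main catalytic subunit of most tissues. Its level was 109, 283 and 239 CPM in the NCD mice and 147, 110 and 94.5 CPM in the HFD mice. NCD replicate 1 lay among the HFD mice, and the other two NCD mice were above all of them. The log2 fold change was −0.85 with all 6 mice (SE 0.385, edgeR adjusted p = 0.202), and without NCD replicate 1 *Prkaca* fell by 1.15 (SE 0.209, edgeR adjusted p = 0.0188). Among the NCD mice, the summed adipocyte markers were lowest in replicate 1 and highest in replicate 3. *Prkaca* was lowest in replicate 1 and highest in replicate 2 of these mice. Without NCD replicate 1, 5 of the 10 adipocyte markers passed as lower. The ratio of *Prkaca* to that sum was 1.86%, 1.29% and 0.795% on NCD and 0.928%, 0.663% and 0.754% on HFD, and the diets overlapped. The part of the adipocyte markers in this fall was not tested.

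*Prkacb* (chr3:146729579-146812946), the second catalytic subunit, was at 272, 99.9 and 89.0 CPM in the NCD mice and 97.1, 81.9 and 87.7 CPM in the HFD mice. Its high NCD mean was that of 1 library, NCD replicate 1, and the other 5 mice lay between 81.9 and 99.9 CPM. The log2 fold change was −0.79 (SE 0.451, edgeR adjusted p = 0.290) with all mice and −0.07 (SE 0.126, edgeR adjusted p = 0.708) without it.

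*Prkar2b* (chr12:31958450-32061648), the regulatory subunit characteristic of adipose tissue and brain, whose loss makes mice lean, was at 167, 599 and 783 CPM in the NCD mice and 667, 432 and 285 CPM in the HFD mice. It varied more within each diet than between the diet means of 516 ± 316 and 461 ± 193 CPM (SD, n = 3 each). The log2 fold change was −0.16 (SE 0.606, edgeR adjusted p = 0.875), and −0.57 without NCD replicate 1 (SE 0.368, edgeR adjusted p = 0.310). Relative to the summed adipocyte markers it was at 2.87%, 2.72% and 2.60% in the NCD mice and 4.23%, 2.61% and 2.27% in the HFD mice, so in 5 of the 6 mice this ratio stayed between 2.27% and 2.87%.

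*Prkar1a* (chr11:109649023-109669663), the widely expressed regulatory subunit, varied least over the 6 mice relative to its mean. Its level was 222, 263 and 296 CPM in the NCD mice and 310, 294 and 294 CPM in the HFD mice. The log2 fold change was 0.20 (SE 0.184, edgeR adjusted p = 0.496), and 0.11 without NCD replicate 1 (SE 0.136, edgeR adjusted p = 0.588).

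Per length, *Prkar2b* was the most abundant of the PKA subunits in 5 mice and *Prkar1a* in NCD replicate 1. The mean FPKM of *Prkar2b* was 141 ± 86.5 on NCD and 126 ± 52.8 on HFD, and that of *Prkar1a* was 64.0 ± 9.03 and 73.5 ± 2.37 (SD, n = 3 each). That of *Prkaca* was 84.5 ± 36.5 and 47.0 ± 10.7, and that of *Prkacb* 29.5 ± 19.7 and 17.1 ± 1.47. The share of *Prkar2b* among the regulatory subunits was 39.7%, 68.3% and 72.0% in the NCD mice and 67.3%, 59.3% and 49.1% in the HFD mice (exact permutation p = 0.9). With NCD replicate 1 left out the HFD shares were all below the NCD shares, a mean difference of −11.5 percentage points. The share of *Prkacb* among the catalytic subunits was 54.4%, 14.4% and 15.1% against 24.0%, 26.3% and 30.7% (exact permutation p = 1.0), and here the HFD shares were all above the NCD shares once NCD replicate 1 was left out, by 12.3 points. The exact permutation p was 0.2 for each difference without that library, the smallest that 2 against 3 mice allows.

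The log2 ratio of summed catalytic to summed regulatory FPKM was −0.27, −0.85 and −1.39 in the NCD mice and −1.81, −1.74 and −1.53 in the HFD mice. All HFD ratios were below all NCD ratios. The mean went from −0.84 ± 0.563 to −1.69 ± 0.141 (SD, n = 3 each, exact permutation p = 0.1, adjusted 0.15), and the difference was −0.57 without NCD replicate 1. Without division by gene length the difference with all mice was −0.84, but the diets overlapped (exact permutation p = 0.2). The summed catalytic FPKM was 95.8, 133 and 113 on NCD and 77.5, 59.9 and 54.8 on HFD, without overlap, whereas the summed regulatory FPKM overlapped, at 116, 240 and 298 on NCD and 271, 199 and 159 on HFD.

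**Figure D4:**
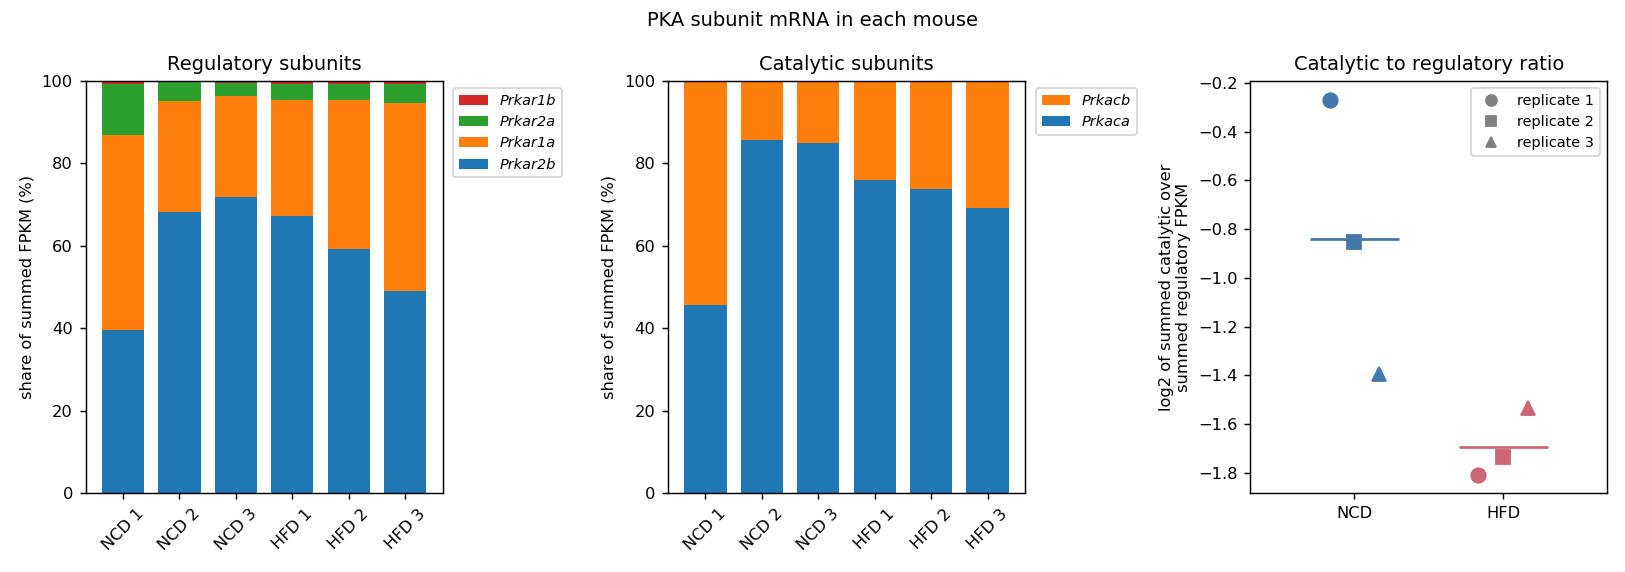
Make-up of the PKA subunits by mouse: shares of the regulatory and of the catalytic subunits in their summed FPKM (percent) and the log2 ratio of catalytic to regulatory FPKM. NCD replicate 1 differs from the other NCD mice in the shares and has the highest log2 ratio, which lies between −1.81 and −1.53 in the HFD mice.

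Around these 10 genes, 84 other genes of the cAMP pathway were in the table and 77 were tested. These lists hold the remaining cyclases and PKA subunits, PKA inhibitors, G protein subunits, receptors coupled to Gs or Gi, PKA anchoring proteins, and effectors and CREB factors. With all 6 mice 4 of the 77 rose, 3 fell and 70 did not pass, beside 7.47% of all genes called. The median log2 fold change was −0.11, against −0.08 over all genes tested. When NCD replicate 1 was left out, 8 rose and 12 fell, beside 20.9% of all genes called.

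Of the receptors, 3 of 19 rose and 1 fell. *Ptger4* and *Ptger2*, the prostaglandin E2 receptors coupled to Gs, rose by 1.87 (SE 0.254, edgeR adjusted p = 0.0220) and 2.45 (SE 0.453, edgeR adjusted p = 0.0348) on the log2 scale. *Ptger4* was at 5.94, 9.03 and 9.16 CPM on NCD and 23.2, 30.4 and 34.4 CPM on HFD. *Ptger3*, the prostaglandin E2 receptor coupled to Gi and antilipolytic in adipocytes, was at 34.6, 96.0 and 109.7 CPM on NCD and 12.1, 12.2 and 6.49 CPM on HFD. It fell by 2.97 (SE 0.506, edgeR adjusted p = 0.0289). The receptors of the same ligand thus differed in direction, and in each case the diets did not overlap. Over all genes tested with all 6 mice, the diets did not overlap for 39.2%. *Adora2b*, an adenosine receptor coupled to Gs, rose by 2.31 (edgeR adjusted p = 0.0394). The β3-adrenergic receptor *Adrb3*, the main one of mouse fat cells, was at 192, 626 and 1141 CPM on NCD and 150, 304 and 89.1 CPM on HFD, with a log2 fold change of −1.85 (edgeR adjusted p = 0.161), and it fell by 2.28 without NCD replicate 1 (edgeR adjusted p = 0.0386). *Tshr*, the thyrotropin receptor, was at 42.4, 196 and 205 CPM on NCD and 92.8, 76.5 and 61.9 CPM on HFD, with a log2 fold change of −0.94 (edgeR adjusted p = 0.313), and it fell by 1.37 without NCD replicate 1 (edgeR adjusted p = 0.00957). In that fit the calls of *Ptger4* (1.71), *Ptger2* (2.13), *Ptger3* (−3.31) and *Adora2b* (2.20) kept their direction and stayed past the threshold.

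Among the other cyclases and subunits, 1 of 5 tested genes passed. *Adcy10*, the soluble cyclase driven by bicarbonate, was at 2.07, 5.99 and 6.40 CPM on NCD and 0.243, 0.348 and 0.128 CPM on HFD. Those HFD levels rest on only 14, 29 and 8 counts. *Adcy10* fell by 4.31 on the log2 scale (SE 0.636, edgeR adjusted p = 0.0235), and by 4.65 without NCD replicate 1 (edgeR adjusted p = 0.00642), though at its highest it made up 1.75% of the cyclase FPKM. *Prkar2a*, the other RII subunit, was at 57.2 ± 11.5 CPM on NCD and 42.9 ± 9.21 CPM on HFD (SD, n = 3 each, edgeR adjusted p = 0.264).

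None of the 16 G protein genes passed edgeR's test with all 6 mice, where 4 had an unadjusted p under 0.05 and 2 passed in DESeq2. *Gnas*, which encodes the stimulatory α subunit, was at 687, 679 and 744 CPM on NCD and 682, 621 and 559 CPM on HFD. *Gnai2*, an inhibitory α subunit also abundant in leukocytes, was at 162, 252 and 237 CPM on NCD and 438, 427 and 496 CPM on HFD. Its log2 fold change of 1.06 (SE 0.235) narrowly missed the edgeR threshold of 0.05, and it rose by 0.91 without NCD replicate 1 (edgeR adjusted p = 0.0159). Of the βγ subunits, *Gnb5* was at 20.8, 73.3 and 71.2 CPM on NCD and 23.2, 28.3 and 22.7 CPM on HFD, and it fell by 1.53 without NCD replicate 1 (edgeR adjusted p = 0.00544), against a log2 fold change of −1.16 with all 6 mice (edgeR adjusted p = 0.164). *Gng2* was at 43.0, 25.3 and 15.9 CPM on NCD and 55.8, 33.8 and 50.4 CPM on HFD, and it rose by 1.20 without that library (edgeR adjusted p = 0.0414), against 0.74 with it (edgeR adjusted p = 0.262).

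Of the effectors, *Rapgef3*, the cAMP-gated exchange factor Epac1, rose, and the other 13 did not pass. It was at 15.8, 25.1 and 32.8 CPM on NCD and 77.2, 57.3 and 62.8 CPM on HFD (log2 fold change 1.42, SE 0.292, edgeR adjusted p = 0.0432), and it rose by 1.20 without NCD replicate 1 (edgeR adjusted p = 0.0142). The PKA targets in lipolysis, *Lipe* (hormone-sensitive lipase) and *Plin1* (perilipin), had log2 fold changes of −0.54 and −0.75 with all 6 mice (edgeR adjusted p = 0.553 and 0.415), and fell by 0.95 and 1.17 without NCD replicate 1 (edgeR adjusted p = 0.0448 and 0.0234). Both are also adipocyte markers in the list used above.

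Of the 20 anchoring proteins tested, *Gphn* alone passed with all 6 mice, falling by 0.77 (SE 0.170, edgeR adjusted p = 0.0496). Without NCD replicate 1 *Akap13* rose by 0.59, *Akap5*, *Akap7* and *Opa1* fell by 1.42, 1.05 and 0.66, and *Gphn* fell by 0.89. None of the 3 PKA inhibitor genes passed edgeR's test with all 6 mice, where 1 was higher at an unadjusted p under 0.05 and 1 was higher in DESeq2. The inhibitor *Pkib* rose by 2.25 without NCD replicate 1 (edgeR adjusted p = 0.0182), at 3.24 and 1.60 CPM on NCD against 10.4, 8.95 and 14.9 CPM on HFD. In NCD replicate 1 it was at 11.8 CPM.

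All 7 pathway calls with all 6 mice were lost when any one of the mice other than NCD replicate 1 was left out, with edgeR adjusted p of 0.0561 to 0.191 and no change of sign. *Adora2b* was also lost in limma-voom (0.0649), *Ptger3* with total counts (0.0561), and *Rapgef3* and *Gphn* in other fits as well.

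**Figure D5:**
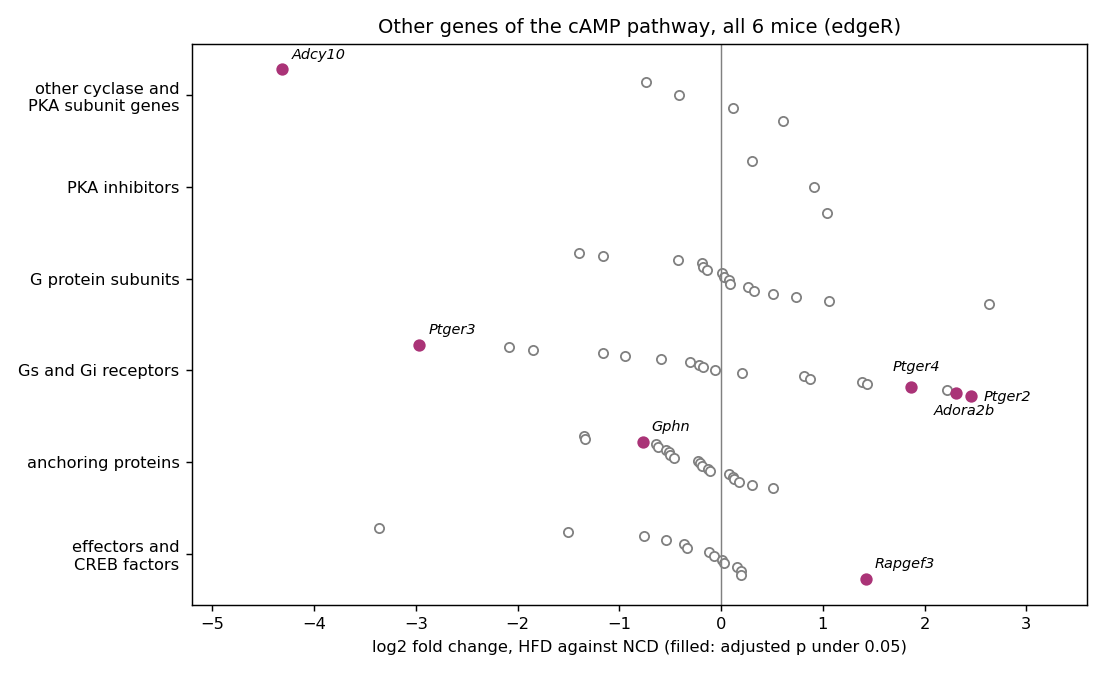
Log2 fold change (HFD against NCD, all 6 mice) of the 77 other genes of the cAMP pathway that were tested, by list, with genes past an edgeR adjusted p of 0.05 filled and named. The 7 named genes are *Adcy10*, *Ptger3* and *Gphn* on the lower side and *Ptger4*, *Ptger2*, *Adora2b* and *Rapgef3* on the higher side.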

How the data were processed

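The deposited table holds raw read counts per gene, 1 column for each of 6 mice. The authors isolated RNA with Trizol and made stranded poly(A) libraries (TruSeq Stranded mRNA). The submitters' processing notes name bcl2fastq 2.20.0, Trimmomatic, HISAT2 2.1.0, StringTie 1.3.4d and DESeq2, and the builds mm10 and GRCm38. Neither the strand setting of the counting nor its handling of shared reads is stated.

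NCBI gene identifiers were matched to symbols in RefSeq, and exon lengths were taken from GENCODE. In edgeR 4.0.16 (R 4.3.3) filterByExpr removed low genes at its settings of 10 for the count and 15 for the total, and the rest were fitted after TMM scaling with diet as the only term, using the quasi-likelihood test with Benjamini-Hochberg adjustment over all 15241 genes and a threshold of 0.05. Shares were compared by exact two-sided permutation tests. FPKM here is TMM-scaled CPM divided by exon length in kilobases. Total counts and TMM factors differed between libraries. For the 10 genes counting error is small at these depths beside the spread between mice, but it is larger for pathway genes with few counts, such as *Adcy10* on HFD.

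All 10 genes are named, with pathway genes that passed with all 6 mice or without NCD replicate 1 or that a sentence needs, and the 5 nearest profiles to the genes with the largest rise and fall. The genes and all lists were chosen with earlier results of these data known. Alternatives were no filter, a mean CPM of at least 1, other scalings, DESeq2 1.42.0, limma-voom (limma 3.58.1), a replicate block and each mouse left out. With 1 mouse left out, the smaller group is assumed to vary like the other. On simulated data with the same library sizes for the diet comparison with all 6 mice and 200 changed genes, edgeR recovered 39.5% and none of its calls was false. On the same data DESeq2 recovered 45.0% and 18.2% of its calls were false. The simulated counts used edgeR's own estimate of the spread and a common mean for each unchanged gene. No simulated library was set apart by seminal vesicle RNA, so these figures do not rank the tools on the real mice. Libraries of the same diet differed by far more than sampling noise, with a chi-square of at least 116 per degree of freedom.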

Additional observations from a re-analysis of the deposited data

How the results depend on the processing

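The number of the 10 genes called was 2 with all 6 mice in edgeR, 1 without a filter on low counts, 1 with scaling to total counts, 1 in limma-voom, 3 with a mean CPM of at least 1 (with *Adcy6*), 2 with upper-quartile scaling (*Adcy6* and *Adcy7*), 5 in DESeq2 and 0 with the replicate number as a block, and it ran from 0 to 5 when 1 mouse was left out (5 without NCD replicate 1, 0 without any other mouse, where 4 or 5 had an unadjusted p under 0.05). Over all genes the count was 1139, against 3904 in DESeq2, 12 with the block, and 2 to 3234 with 1 mouse left out (3234 without NCD replicate 1, 7 or fewer without any other). For the pathway lists it was 7, against 17 in DESeq2, 0 with the block, and 0 to 20 with 1 mouse left out (20 without NCD replicate 1, 0 without any other, where 14 to 23 had an unadjusted p under 0.05). The correlations of same-numbered mice were −0.0565 to 0.00965 and gave no sign of pairing, though 3 mice per diet cannot exclude it. With the block 4 of the 10 genes and 18 of the pathway genes had an unadjusted p under 0.05.

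Of 150 recomputed fold changes of the 10 genes over 15 alternatives, 143 kept their direction. The log2 fold change of *Adcy9*, −0.13 with all mice, ranged from −0.32 to 0.26 with 1 mouse left out and was 0.52 with total counts, 0.26 without NCD replicate 1 and 0.02 without HFD replicate 3. That of *Prkar2b*, −0.16, ranged from −0.57 to 0.28 with 1 mouse left out and was 0.13 with total counts, 0.14 in limma-voom, 0.28 without NCD replicate 3 and 0.10 without HFD replicate 3. The median over all genes, −0.08, became 0.45 with total counts. The difference in the share of *Prkar2b*, −1.41 percentage points, ranged from −11.5 to 4.59 with 1 mouse left out (2.73 without NCD replicate 2, 4.59 without NCD replicate 3, 3.30 without HFD replicate 3). That of *Prkacb*, −0.966, was 2.03 without division by gene length and ranged from −7.74 to 12.3 with 1 mouse left out (12.3 without NCD replicate 1, 0.515 without HFD replicate 1). The cause of these changes was not tested.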

Other observations

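*Gnal*, which encodes the olfactory stimulatory α subunit, was at 2.35, 1.81 and 3.14 CPM in the NCD mice and at 3.36, 22.9 and 19.1 CPM in the HFD mice, so the higher HFD mean was that of 2 mice (log2 fold change 2.63, SE 0.712, edgeR adjusted p = 0.0744). *Rapgef4*, the second cAMP-gated exchange factor, was at 61.6 CPM in NCD replicate 1, at 8.21 and 4.60 CPM in the other NCD mice and at 3.10, 1.85 and 2.26 CPM in the HFD mice. Its log2 fold change was −3.36 with all 6 mice (edgeR adjusted p = 0.0973), and it fell by 1.40 without NCD replicate 1 (edgeR adjusted p = 0.0441).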
